A study of Rattus norvegicus with 8 samples.

Results

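The 9 microglia identity genes *Aif1*, *Cx3cr1*, *P2ry12*, *Tmem119*, *Csf1r*, *Itgam*, *Trem2*, *Cd68* and *Tyrobp* were examined in the hippocampal RNA of 8 rats. They were chosen by name, and their rows were found by the NCBI GeneID that each library lists for every gene. All 9 were present among the 22601 genes of each library, and all 9 were among the 15593 genes with a mean of at least 0.1 FPKM, a fragment count scaled by transcript length and by the mapped fragments of the library.

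The rats were wild type Wistar animals in 3 groups of separately labelled samples, with their age not given in the sources used here. The Con. group (n = 3) received saline injections and the solvent of Q808. The PTZ group (n = 3) received pentylenetetrazole, a convulsant antagonist of GABA-A receptors, and later the solvent of Q808. Kindling, the build-up of seizures under repeated low doses, used 14 intraperitoneal PTZ injections of 35 mg/kg spaced 48 h apart, closed by 60 mg/kg on the last of 28 days. The Q808 group (n = 2) was kindled in the same manner and was then given the anticonvulsant compound Q808 by gavage at 30 mg/kg daily for another 28 days. Rats of the PTZ and Q808 groups also received a further low PTZ dose after that period, before the tissue was taken. A Q808 group without PTZ was not analysed here, so the comparison of Q808 with Con. includes both agents.

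Microglia are the resident macrophages of the brain. They depend on signalling through the receptor Csf1r, sense neurons and damage through receptors such as Cx3cr1 and P2ry12, and carry the lipid-sensing receptor Trem2 on the adaptor Tyrobp, which signals inside the cell. In the hippocampus they clear debris and prune synapses, and seizures are known to change their shape and gene expression. In whole tissue, more microglia and more RNA per microglial cell cannot be told apart.

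Many microglial genes carry binding sites for the myeloid transcription factor PU.1, the product of *Spi1*, whose sites contain a core of the ETS type. The letters GAGGAA, read on both strands, were therefore looked up in the RefSeq promoter windows of the rat assembly GRCr8, which run from 250 bases before to 50 bases after each gene start. Windows were given for 5 of the 9 genes (*Itgam*, *Cx3cr1*, *Trem2*, *Cd68* and *Csf1r*). The letters stood in 4 of these 5 windows, those of *Itgam*, *Trem2*, *Cd68* and *Csf1r*, and in 27.6% of all 33469 windows. The longer run GAGGAAGT stood in 0 of the 5 and in 2.42% of all windows. A match of letters is a description and no proof of a binding site. The stretches upstream of *Itgam*, *Trem2* and *Cd68* are shown as those of the 4 matches that lie outside the annotated gene. Capitals mark the letters, which read TTCCTC where the match is on the strand opposite to the gene.
Itgam, chr1:192089401-192089486, plus strand: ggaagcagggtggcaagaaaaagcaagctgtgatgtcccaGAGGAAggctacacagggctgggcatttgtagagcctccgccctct
Trem2, chr9:20151798-20151848, minus strand: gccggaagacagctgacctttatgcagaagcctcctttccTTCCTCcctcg
Cd68, chr10:54882442-54882508, minus strand: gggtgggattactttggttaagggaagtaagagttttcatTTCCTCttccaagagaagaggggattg
The marked letters ended 145 bases before the listed start of *Itgam*, 23 bases before that of *Trem2* and 21 bases before that of *Cd68*. The listed start of a window can lie inside the annotated gene. Of the 250 bases before it, 154 lay outside the gene for *Itgam*, 232 for *Trem2* and 250 for *Cd68*.

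Some libraries stood apart in each of the 3 groups. Marker genes of the striatum, a neighbouring brain region, had a mean log2(FPKM + 0.1) of 6.20 to 7.35 in Con.-3, PTZ-3 and Q808-1 and of 1.56 to 2.48 in the other 5 libraries. Q808-1 also lay furthest from the Con. mean for the following cell type markers. Relative to the Con. mean, its mean log2 level was higher by 1.40 for oligodendrocyte markers, by 1.18 for endothelial markers and by 0.60 for astrocyte markers, while that of neuron markers was -0.90 and that of dentate granule cell markers -1.47. Con.-3 and PTZ-3 went the same way for some of these lists. Oligodendrocyte markers were at 0.71 and 0.64 in them, neuron markers at -0.31 and -0.43 and dentate granule cell markers at -1.21 and -0.76. Endothelial markers were at 0.06 and 0.82, and astrocyte markers at -0.17 and 0.34. Q808-2 stood apart in another way. Its 6 choroid plexus markers, genes of the epithelium that makes cerebrospinal fluid, were 2.86 above the Con. mean on the same scale, with a summed level of 6437 FPKM, beside -1.75 and 163 FPKM in Q808-1. The Con. libraries also differed in them, at 1.16, 1.33 and -2.49, and the PTZ libraries lay at -1.01, -1.55 and -0.28. The log2 fold change of each of the 9 genes with Q808 is therefore given with and without Q808-1. In the 5 libraries low in striatum markers, the Q808 group is Q808-2 alone, and a p for Q808 in this setting assumes that it varies like the other group. In the same setting 6 of 6 choroid plexus markers were called lower in PTZ than in Con., beside 1530 of the 15593 genes tested. Their median log2 fold change was -2.58. With Q808-2 as the lone Q808 library, their medians were 4.12 against PTZ and 1.65 against Con. The part of these differences in the microglial results was not tested.

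Averaged over the 8 libraries, *Csf1r* had the highest level at 26.2 FPKM, followed by *Cx3cr1* at 14.8, *Tyrobp* at 13.5, *Aif1* at 13.03 and *Tmem119* at 12.8 FPKM. *Trem2* at 7.90, *P2ry12* at 7.55, *Itgam* at 3.46 and *Cd68* at 1.29 FPKM were lower. FPKM are scaled by transcript length, so that levels may be set side by side between genes. *Csf1r* exceeded *Cx3cr1*, *P2ry12* exceeded *Itgam* and *Itgam* exceeded *Cd68* in 8 of 8 libraries. Neighbours in the middle of the order did not separate, since *Tyrobp* exceeded *Aif1* in 3 of 8 libraries, *Aif1* exceeded *Tmem119* in 4 and *Trem2* exceeded *P2ry12* in 5. *Csf1r* lay above 80.5% of the genes tested in mean level and *Cd68* above 22.6%, so the set spans abundant and scarce transcripts.

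*Csf1r* encodes the receptor for the survival factors Csf1 and Il34. It was measured at 20.3, 19.2 and 22.8 FPKM in the Con. libraries, at 26.8, 18.8 and 27.8 FPKM in the PTZ libraries and at 49.0 and 24.5 FPKM in the Q808 libraries. Both Q808 libraries lay above all Con. libraries, but Q808-2 fell within the PTZ range. *Cx3cr1*, the receptor for the neuronal chemokine fractalkine, was at 9.16, 10.4 and 15.0 FPKM in Con., at 13.3, 10.97 and 15.6 FPKM in PTZ and at 29.4 and 15.0 FPKM in Q808. Only Q808-1 stood outside the range of the other libraries for this gene. *P2ry12*, the purinergic receptor that guides microglial processes toward ATP and ADP, was at 7.51, 5.78 and 6.34 FPKM in Con., at 6.54, 3.82 and 7.49 FPKM in PTZ and at 14.9 and 8.03 FPKM in Q808. Here both Q808 libraries exceeded every other library, and PTZ-2 was the lowest. *P2ry12* overlaps the gene *Med12l*, and *Cx3cr1* overlaps a long noncoding RNA gene, in the GRCr8 annotation. Whether strand was used in counting is not stated. *Med12l* was measured at 0.617 to 1.67 FPKM.

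*Trem2* and *Tyrobp* encode the lipid receptor and its signalling adaptor. *Trem2* was at 6.92, 4.36 and 7.49 FPKM in Con., at 7.64, 5.27 and 12.5 FPKM in PTZ and at 15.1 and 3.96 FPKM in Q808. The 2 Q808 rats thus held the highest and the lowest value of all 8. *Tyrobp* was at 13.1, 7.86 and 12.5 FPKM in Con., at 11.2, 7.88 and 17.3 FPKM in PTZ and at 26.2 and 11.99 FPKM in Q808. Its 3 groups overlapped, with only Q808-1 above the rest.

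*Itgam* encodes the integrin alpha chain CD11b, which pairs with the product of *Itgb2* to form complement receptor 3. It was at 2.87, 2.86 and 2.86 FPKM in Con., at 3.52, 2.12 and 3.34 FPKM in PTZ and at 6.47 and 3.64 FPKM in Q808. Both Q808 libraries lay above all others, Q808-2 by a small margin over PTZ-1. *Aif1*, which encodes the actin-binding protein Iba1 used to stain microglia, was at 10.6, 9.76 and 8.58 FPKM in Con., at 12.3, 8.74 and 19.4 FPKM in PTZ and at 22.5 and 12.3 FPKM in Q808. The Q808 values exceeded the Con. values and overlapped those of PTZ. *Cd68*, which encodes a lysosomal membrane protein of phagocytes, was at 1.46, 1.63 and 0.945 FPKM in Con., at 0.866, 0.738 and 1.23 FPKM in PTZ and at 1.96 and 1.47 FPKM in Q808. The PTZ and Q808 libraries did not overlap, while the Con. libraries spanned both.

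*Tmem119*, a transmembrane protein used to tell resident microglia from blood-derived macrophages, did not follow the other genes. It was at 10.2, 10.2 and 8.997 FPKM in Con., at 17.8, 15.4 and 12.1 FPKM in PTZ and at 15.8 and 11.7 FPKM in Q808. All 5 libraries of PTZ-injected rats lay above all 3 Con. libraries, and PTZ-1, not Q808-1, held the highest value. Of the 9 genes, *Tmem119* was the one whose highest library was not Q808-1. The ratio of the highest to the lowest library was 1.98 for *Tmem119*, the smallest of the set, and reached 3.89 for *P2ry12*.

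**Figure D1:**
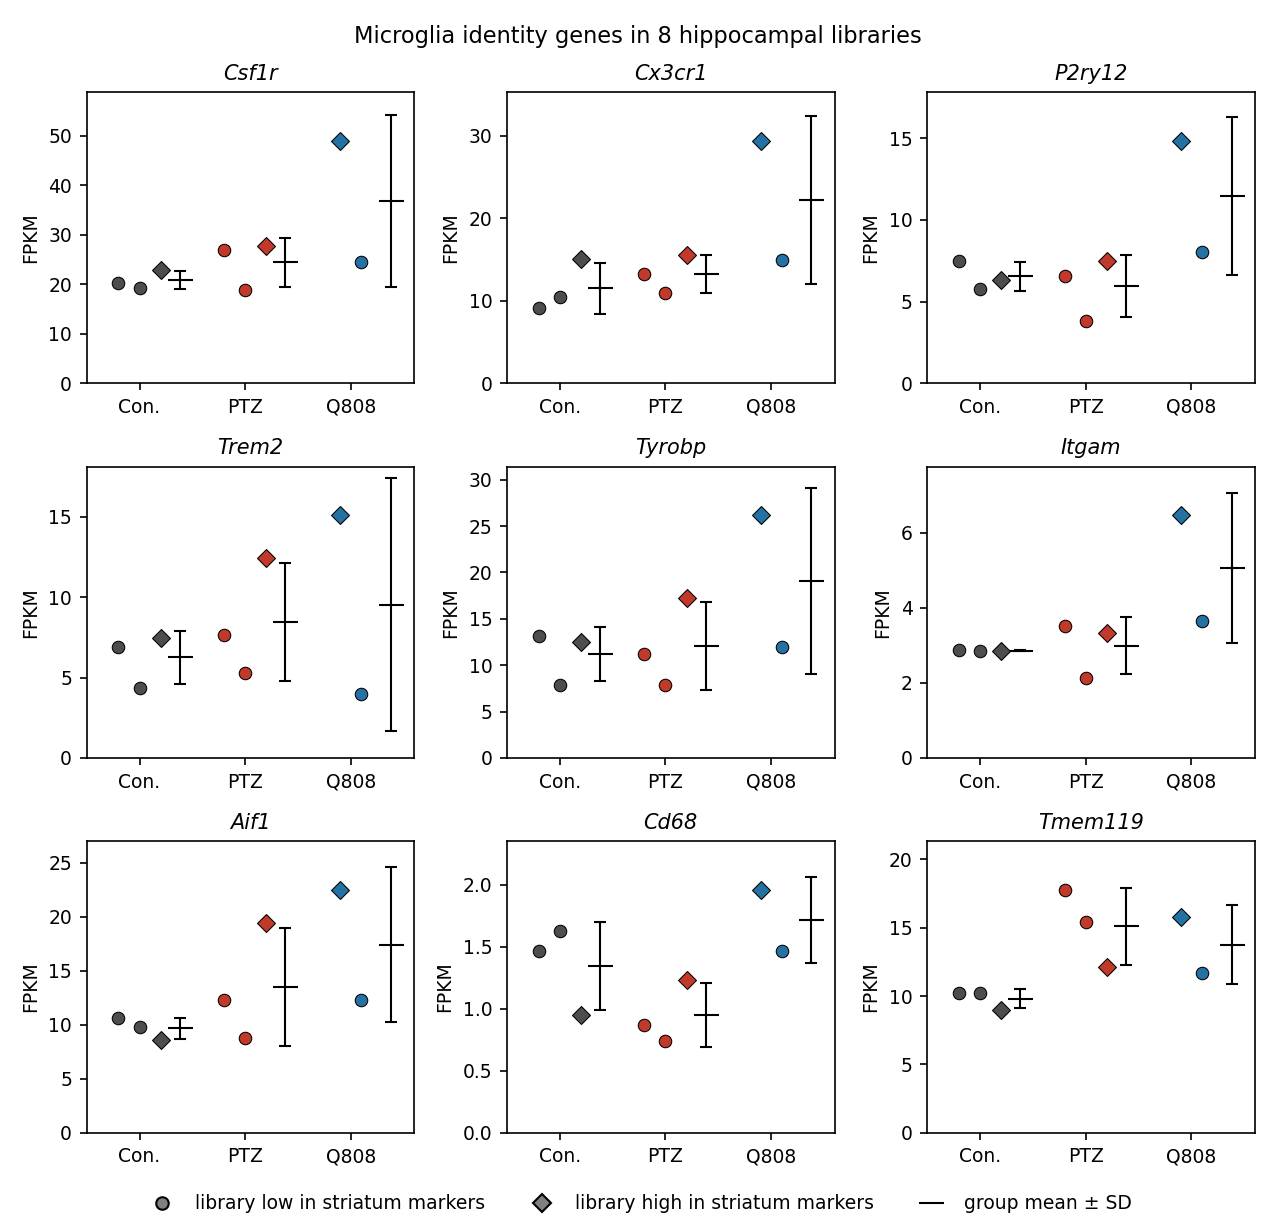
FPKM of each of the 9 genes (y axis from 0, with its own scale per gene) in the 3 Con., 3 PTZ and 2 Q808 libraries, with 1 point per library, diamonds for the 3 libraries high in striatum markers and bars for the group mean ± SD. Q808-1, the diamond of the Q808 group, is the highest point for every gene but *Tmem119*, for which the 3 PTZ points of 12.1 to 17.8 FPKM lie above the Con. points of 8.997 to 10.2 FPKM.

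The difference between kindled and vehicle rats in the microglial genes is addressed by PTZ against Con. This comparison joins kindling with the further PTZ dose given before the tissue was taken, and their effects cannot be told apart. *Tmem119* was the only 1 of the 9 genes called, which required an unadjusted p under 0.05 and a difference beyond 1.5-fold, while 2.53% of all genes tested were called. The Con. mean of 9.81 ± 0.705 FPKM (SD, n = 3) rose to 15.1 ± 2.84 FPKM in PTZ (SD, n = 3). The log2 fold change was 0.60 (SE 0.18, 95% CI 0.18 to 1.02), with an unadjusted p of 0.0115 in limma. The Benjamini-Hochberg adjusted p over all genes was 0.999 in limma, and between 0.0844 and 1 under the alternatives, so the call does not hold after adjustment. *Tmem119* was higher in 3 of 3 PTZ libraries, and the groups did not overlap for it, nor for 9.15% of all genes. The study had also picked this gene from these libraries, so its call is not independent evidence. In the 5 libraries low in striatum markers, its log2 fold change was 0.69 (unadjusted p = 0.00163 and adjusted p = 0.0844 in limma). In that setting 1530 of the 15593 genes tested were called. The call was lost without Con.-3 (log2 fold change 0.54), without PTZ-1 (0.48) and without PTZ-2 (0.58), in each case with the direction kept. A replicate block raised the count of called genes from 395 to 616, and *Tmem119* was again the 1 gene called among the 9 (unadjusted p = 0.00685 in limma).

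The other 8 genes did not pass the test between PTZ and Con. over all libraries. Without PTZ-2 *Aif1* was called higher, with a log2 fold change of 0.68. Their log2 fold changes ran from -0.46 (SE 0.33) for *Cd68* through -0.18 (SE 0.28) for *P2ry12* to 0.41 (SE 0.29) for *Aif1*, all with 95% intervals that include 0. The intervals of *Csf1r* at 0.22 (95% CI -0.21 to 0.64) and *Itgam* at 0.03 (95% CI -0.57 to 0.64) include both no change and a rise of 1.5-fold. The median over the 9 genes was 0.22, with 7 genes higher in PTZ, beside -0.04 over all genes tested. Without Con.-3 and PTZ-3 the median was 0.03, with 5 genes higher, beside -0.11 over all genes. In that setting *Cd68*, at 1.46 and 1.63 FPKM in Con. and 0.866 and 0.738 FPKM in PTZ, was called lower as well, with a log2 fold change of -0.87 (unadjusted p = 0.0167 and adjusted p = 0.185 in limma). There 1530 of the 15593 genes tested were called, beside 395 over all libraries. Its adjusted p ranged from 0.185 to 1 over the alternatives.

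Whether Q808 changes the genes in kindled rats is addressed by Q808 against PTZ. None of the 9 genes was called, with 0 at an unadjusted p under 0.05 in limma, beside 1.92% of all genes called. The median log2 fold change was 0.62, beside 0.10 over all genes, with 7 of 9 genes higher in Q808. *P2ry12* had means of 5.95 ± 1.91 FPKM in PTZ (SD, n = 3) and 11.4 ± 4.83 FPKM in Q808 (SD, n = 2). Its log2 fold change was 0.92 (SE 0.40, 95% CI -0.04 to 1.88). *Cd68* had 0.81 (SE 0.38), *Itgam* 0.71 (SE 0.38) and *Cx3cr1* 0.67 (SE 0.32). *Tyrobp* had 0.62 (SE 0.44), *Csf1r* 0.52 (SE 0.34) and *Aif1* 0.38 (SE 0.405), while *Tmem119* had -0.13 (SE 0.24) and *Trem2* -0.04 (SE 0.62). The groups did not overlap for *P2ry12*, *Itgam* and *Cd68*, which is 3 of 9 genes, beside 15.6% of all genes tested.

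The size of these differences rested largely on Q808-1. Without that library the median over the 9 genes was 0.06, with *Csf1r* at 0.02, *Tyrobp* at 0.06, *Cx3cr1* at 0.19 and *Aif1* at -0.05. *Itgam* was at 0.31, *Tmem119* at -0.35 and *Trem2* at -0.99. Without Q808-2, which leaves Q808-1 as the lone Q808 library, the median was 1.02. *P2ry12* and *Cd68* kept differences of 0.48 and 0.61 without Q808-1, neither of them called. With Q808-2 alone against PTZ-1 and PTZ-2, the libraries low in striatum markers, the median was 0.31, and *Tmem119* was at -0.50 (unadjusted p = 0.0325 in limma, with the spread of the lone Q808 library assumed), under the 1.5-fold limit. Between the single libraries high in striatum markers, Q808-1 and PTZ-3, all 9 genes were higher in Q808-1 with a median log2 difference of 0.63, which has no replicate check.

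Against Con., 2 of the 9 genes were called higher in Q808, *Aif1* and *Itgam*, beside 3.46% of all genes. *Aif1* had a mean of 9.65 ± 1.01 FPKM in Con. (SD, n = 3) and rose to 17.4 ± 7.19 FPKM in Q808 (SD, n = 2), which is 0.79 on the log2 scale (SE 0.29, 95% CI 0.08 to 1.499, unadjusted p = 0.0356 in limma). *Itgam* had a mean of 2.86 ± 0.00619 FPKM in Con. (SD, n = 3) and rose to 5.05 ± 2.00 FPKM in Q808 (SD, n = 2), which is 0.74 on the log2 scale (SE 0.29, 95% CI 0.02 to 1.47, unadjusted p = 0.0464 in limma). Both had an adjusted p of 0.901 in limma, with a range of 0.359 to 1 over the alternatives, so neither call holds after adjustment. Each gene was higher in 2 of 2 Q808 libraries than in every Con. library.

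All 9 genes had a higher mean in Q808 than in Con., with a median log2 fold change of 0.74, beside 0.05 over all genes. *Cx3cr1* at 0.89 (SE 0.36), *P2ry12* at 0.74 (SE 0.30), *Csf1r* at 0.74 (SE 0.31) and *Tmem119* at 0.47 (SE 0.19) were not called, with unadjusted p in limma between 0.0506 and 0.0574. *Tyrobp* at 0.70 (SE 0.40), *Cd68* at 0.35 (SE 0.34) and *Trem2* at 0.34 (SE 0.59) had wider or lower estimates. Q808 and Con. libraries were fully separated for 5 of the 9 genes (*Aif1*, *P2ry12*, *Tmem119*, *Csf1r* and *Itgam*), beside 20.0% of all genes. Each comparison shares the libraries of 1 group with each of the others, so that they are not independent.

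Without Q808-1 no gene of the set was called against Con., with *Aif1* at 0.36, *Itgam* at 0.34 and a median of 0.25. *Cx3cr1* was at 0.41, *P2ry12* at 0.30, *Tmem119* at 0.25, *Csf1r* at 0.24, *Cd68* at 0.15, *Tyrobp* at 0.14 and *Trem2* at -0.61. Without Q808-2 the median was 1.22, again on 1 Q808 library. Leaving out a single Con. library also ended calls, with *Aif1* at 0.86, 0.80 and 0.71 and *Itgam* at 0.75, 0.74 and 0.74 without Con.-1, Con.-2 and Con.-3, and neither gene called in any of these settings. In the 5 libraries low in striatum markers, where Q808 has 1 library, the median was 0.28, with *Cx3cr1* at 0.61 and *Trem2* at -0.46. The adjusted p of *Cx3cr1* in limma ranged from 0.318 to 1 over the alternatives.

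**Figure D2:**
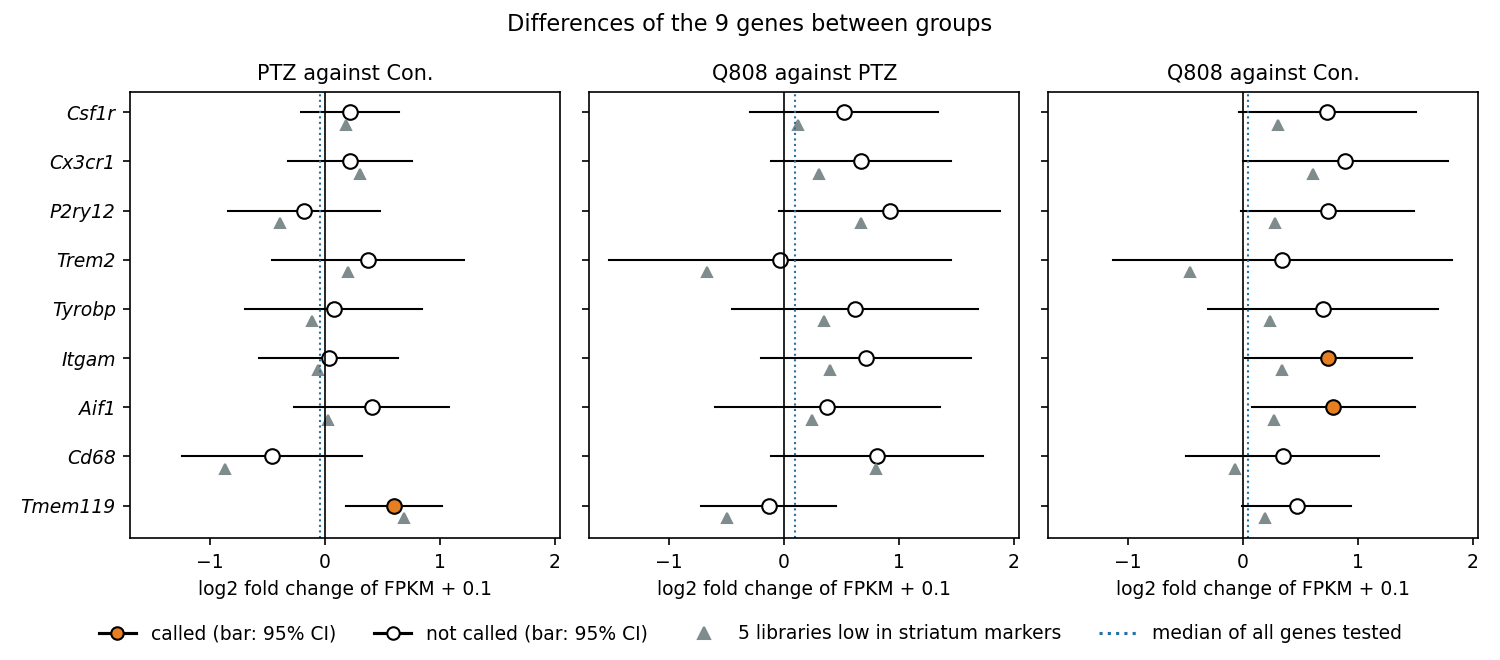
Log2 fold change of FPKM + 0.1 (x axis) for the 9 genes in the 3 comparisons, with bars for the 95% confidence interval in limma, filled circles for called genes, triangles for the 5 libraries low in striatum markers and a dotted line for the median of all genes tested. *Tmem119* is the filled circle in PTZ against Con. (0.60), *Aif1* (0.79) and *Itgam* (0.74) are those in Q808 against Con., and most triangles of the comparisons with Q808 lie closer to 0 than the circles.

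The genes differed in how far they moved as a set. Across the 8 libraries the 36 pairwise Pearson correlations of log2(FPKM + 0.1) had a median of 0.77 and ran from -0.23 to 0.95. Among *Aif1*, *Cx3cr1*, *P2ry12*, *Csf1r*, *Itgam*, *Trem2* and *Tyrobp* they ran from 0.62 to 0.95, and without Q808-1 from 0.19 to 0.87. *Tmem119* had correlations of -0.23 to 0.46 with the other genes. All values share the same 8 libraries with their differences in cell type markers, and *Tmem119* and *Cd68* were set aside after their values were seen.

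Expressed relative to the mean log2 level of the other 8 genes in the same library, *Tmem119* was at 0.53, 0.74 and 0.38 in Con. and at 1.27, 1.56 and 0.37 in PTZ. PTZ-1 and PTZ-2 thus held more *Tmem119* per unit of the other genes than any Con. library, and PTZ-3 less. In Q808 it was at 0.08 and 0.64, with Q808-1 the lowest of all 8. *P2ry12* on the same scale was at 0.04, -0.17 and -0.18 in Con., at -0.34, -0.67 and -0.40 in PTZ and at -0.02 and 0.04 in Q808. Its 3 PTZ libraries lay below the other 5. *Cd68* was at -2.53, -2.16 and -3.13 in Con. and at -3.47, -3.17 and -3.23 in PTZ, also without overlap, while Q808-1 at -3.24 fell among the PTZ values and Q808-2 at -2.64 among those of Con. *Csf1r* was the steadiest gene on this scale, with a range of 0.29 over the 8 libraries. These shifts are descriptions of the libraries and were not tested.

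**Figure D3:**
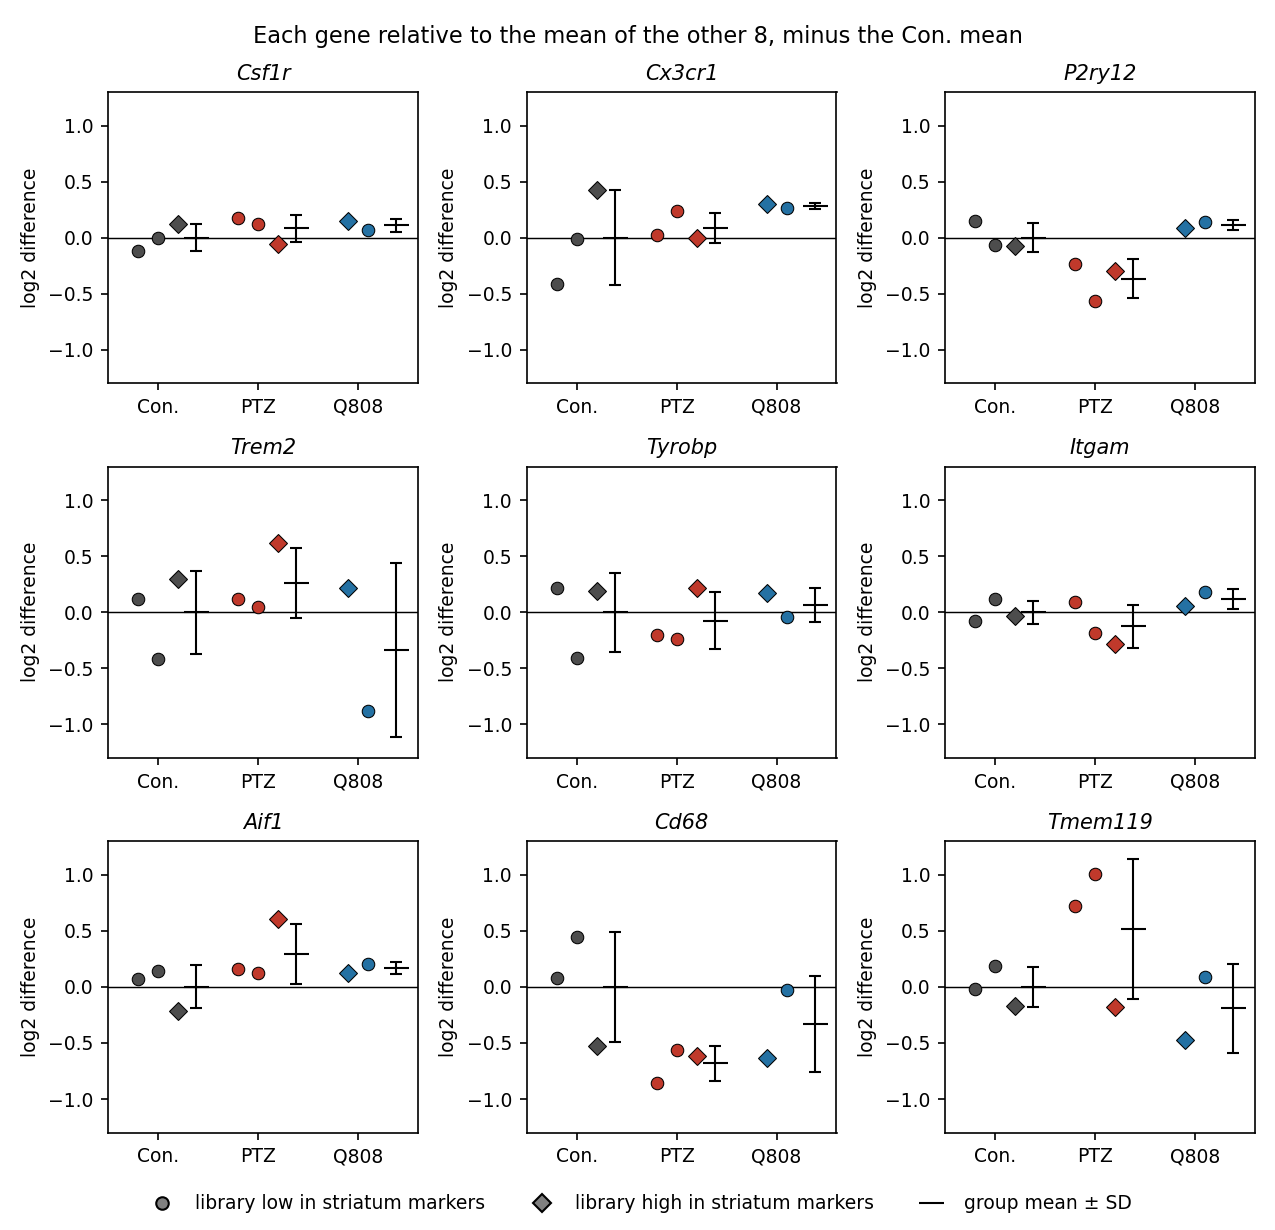
Log2(FPKM + 0.1) of each gene minus the mean of the other 8 genes in the same library, set to 0 at the Con. mean (y axis), with 1 point per library, diamonds for the 3 libraries high in striatum markers and bars for the group mean ± SD. The PTZ points of *P2ry12* and *Cd68* lie below all Con. points, while *Tmem119* is raised in PTZ-1 and PTZ-2 but not in PTZ-3.

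Other genes of the same cells were read from lists of known genes. Every gene of these lists that was called over all libraries had a Benjamini-Hochberg adjusted p over all genes of 0.999 in PTZ against Con., 0.952 in Q808 against PTZ or 0.901 in Q808 against Con. in limma, so none of these calls holds after adjustment. Calls made in the libraries low in striatum markers are given without adjustment, and 1530 of the 15593 genes tested were called there in PTZ against Con. Those with Q808 rest on Q808-2 alone. Of 10 other microglia-enriched genes, *Siglech* was listed at 0 in all 8 libraries and 9 were tested. None was called in PTZ against Con. or in Q808 against PTZ, with medians of 0.14 and 0.54. In Q808 against Con. 3 of 9 were called higher and 0 lower (median 0.58), beside 3.46% of all genes called. *Slc2a5*, a fructose transporter, rose by a log2 fold change of 1.10, *Ptprc*, the leukocyte phosphatase CD45, by 1.06, and *Ctss*, the lysosomal protease cathepsin S, by 0.69. *Ctss*, the most abundant of the list, was at 149, 130 and 142 FPKM in Con., at 169, 110 and 202 FPKM in PTZ and at 295 and 172 FPKM in Q808. With Q808-2 as the lone Q808 library among those low in striatum markers, *Slc2a5* at 0.41, *Ptprc* at 0.77 and *Ctss* at 0.30 were no longer called against Con. Another gene, *Olfml3*, was at 0.78 there, and the median was 0.30.

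The signalling partners of the 9 genes had higher means in Q808 than in Con. for 8 of 8 genes. Of these 8, 1 was called higher in PTZ against Con. (median 0.34), beside 2.53% of all genes called. In Q808 against PTZ 0 were called (median 0.47), beside 1.92% of all genes. In Q808 against Con. 2 were called higher (median 0.66), beside 3.46% of all genes. In each comparison 0 of the 8 were called lower. *Inpp5d*, the phosphatase SHIP1 that dampens signalling by adaptors such as Tyrobp, was at 2.62, 2.36 and 3.22 FPKM in Con., at 4.61, 4.42 and 4.05 FPKM in PTZ and at 6.34 and 3.61 FPKM in Q808. All PTZ and Q808 libraries lay above all Con. libraries, and the log2 fold changes against Con. were 0.67 for PTZ (unadjusted p = 0.0156 in limma) and 0.80 for Q808 (unadjusted p = 0.0465 in limma). In the libraries low in striatum markers *Inpp5d* rose in PTZ by 0.84, and 0 of the 8 were called in Q808-2 against Con., with *Inpp5d* at 0.52 and *Fcer1g* at 0.52. *Fcer1g*, an adaptor related to Tyrobp and the most abundant of the list, rose in Q808 against Con. by 0.85. *Tgfbr1*, a receptor for TGF-beta and the next in level, had 0.54 (SE 0.28) and was not called. *Itgb2*, the partner chain of CD11b, was at 2.87, 1.98 and 3.74 FPKM in Con., at 2.86, 2.54 and 3.64 FPKM in PTZ and at 7.02 and 3.06 FPKM in Q808, so that Q808-1 stood apart for it as for *Itgam*.

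None of the 6 myeloid transcription factors was called in any comparison over all libraries. Their medians were 0.27 for PTZ against Con., 0.31 for Q808 against PTZ and 0.51 for Q808 against Con. *Spi1*, which encodes PU.1, was at 2.55, 1.35 and 1.59 FPKM in Con., at 2.33, 1.65 and 2.36 FPKM in PTZ and at 4.25 and 2.73 FPKM in Q808. Both Q808 libraries exceeded the others, beside 15.6% of all genes without overlap in Q808 against PTZ and 20.0% in Q808 against Con. The log2 fold change of *Spi1* against Con. was 0.91 (SE 0.37). *Sall1*, a microglial identity factor in brain and the most abundant of the list, had 0.43 (SE 0.45), and *Irf8*, needed for microglial development and the next in level, had 0.29 (SE 0.56). In the libraries low in striatum markers these 3 factors had 0.53, 0.11 and -0.22. There *Runx1*, a blood cell development factor, was called higher in PTZ than in Con. (1.23, unadjusted p = 0.0128 in limma), at 0.647 and 0.651 beside 0.278 and 0.169 FPKM.

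The 6 ligands of the microglial receptors had medians of 0.13, -0.20 and 0.04 in the 3 comparisons, beside -0.04, 0.10 and 0.05 over all genes. *Csf1* and *Il34*, the ligands of Csf1r, had log2 fold changes of 0.43 (SE 0.27) and -0.27 (SE 0.26) in Q808 against Con. *Cx3cl1*, the ligand of Cx3cr1, was at 109, 123 and 219 FPKM in Con., at 215, 277 and 113 FPKM in PTZ and at 102 and 120 FPKM in Q808, with overlap between Con. and PTZ. In the libraries low in striatum markers it was called higher in PTZ than in Con. (1.08, unadjusted p = 0.000359 in limma, with no adjusted p given). In Q808-2 alone it was lower than in PTZ there (-1.03). *Csf1* and *Il34* had 0.08 and 0.05 for Q808-2 against Con. Over all libraries 1 gene of the list was called, *Tgfb1*, a factor that maintains the microglial state, which rose in PTZ against Con. by 0.68 (unadjusted p = 0.0139 in limma) and by the same 0.68 in the libraries low in striatum markers. *Apoe*, a lipid carrier bound by Trem2 and the most abundant of the list, had differences from Con. of 0.12 in PTZ and 0.33 in Q808, neither of them called.

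Genes that microglia raise on activation were measured as well. Of 12 listed genes 10 were tested, and *Cst7* and *Itgax* were under the minimum, with at most 0.183 FPKM in any library. In PTZ against Con. 2 of 10 were called higher, *Spp1* and *Lgals3*, and 0 lower, beside 2.53% of all genes called. *Spp1*, the secreted protein osteopontin, was at 0.621, 0.448 and 0.582 FPKM in Con., at 2.26, 1.199 and 1.92 FPKM in PTZ and at 4.86 and 0.941 FPKM in Q808. Every PTZ and Q808 library exceeded every Con. library, with 1.51 (unadjusted p = 0.00256 in limma) for PTZ and 1.48 in the libraries low in striatum markers. *Lgals3*, which encodes galectin-3, rose by 0.77 in PTZ and by 1.35 in Q808 against Con. In Q808 against Con. *Axl*, a receptor for dying cells, rose too, by 0.60. In Q808 against PTZ 1 of 10 was called higher, beside 1.92% of all genes called. This was *Cd74*, the invariant chain of MHC class II, at 0.83. In the libraries low in striatum markers *Lgals3* was no longer called in PTZ against Con. (0.47), and neither *Axl* (0.36), *Spp1* (0.73) nor *Lgals3* (0.95) was called in Q808-2 against Con. *Cd74* was still called in Q808-2 against PTZ, at 1.33. *Clec7a*, a fungal sugar receptor of myeloid cells, was at 1.40 there and at 1.62 against Con., with 0.423 FPKM in Q808-2 and at most 0.137 FPKM elsewhere. None of these genes is particular to microglia, and *Cd9* and *Lpl*, the most abundant of the list, are made by other brain cells. *Cd9* had 0.39 (SE 0.37) and *Lpl* -1.03 (SE 0.63) in Q808 against Con.

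Border macrophages, the macrophages of vessels and meninges, share several of the 9 genes, among them *Csf1r*, *Aif1*, *Cd68* and *Itgam*. Of the 6 markers, 5 were tested. In Q808 against PTZ 4 of the 5 were called higher (median 1.44), beside 1.92% of all genes called. *Mrc1*, the mannose receptor, rose by 1.77, the hemoglobin scavenger receptor *Cd163* by 1.80, the chemokine gene *Pf4* by 1.44 and the coagulation factor gene *F13a1* by 1.42. *Cd163* was at 0.108, 0.0999 and 0.0218 FPKM in Con., at 0.0598, 0.0389 and 0.202 FPKM in PTZ and at 0.672 and 0.458 FPKM in Q808. *Pf4* was at 1.77, 1.86 and 2.01 FPKM in Con., at 3.27, 1.39 and 1.81 FPKM in PTZ and at 7.13 and 4.47 FPKM in Q808. Both Q808 libraries were above all others for both genes. Groups did not overlap for 15.6% of all genes in Q808 against PTZ and 20.0% in Q808 against Con. Against Con. 2 of 5 were called higher (*Cd163* and *Pf4*), beside 3.46% of all genes called. In the libraries low in striatum markers, where Q808-2 is the lone Q808 library, the medians were 1.87 against PTZ and 1.45 against Con. That library is also the one with choroid plexus markers 2.86 above the Con. mean, while Q808-1 has them at -1.75. The part of choroid plexus tissue in these markers was not tested. *Lyve1*, a further marker, had 0.91 (SE 0.60) against Con. The summed level of the list was low, at 2.40 to 4.15 FPKM in Con., 3.07 to 4.995 FPKM in PTZ and 8.71 to 11.1 FPKM in Q808, beside 72.1 to 85.6, 73.8 to 117 and 92.5 to 181 FPKM for the 9 identity genes. The meninges had been removed before dissection according to the study's methods. The part of these cells in the levels of the 9 genes was not tested.

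Blood leukocyte markers gave low values, with 3 of 8 genes tested, 0 called and a summed level of 1.25 to 9.41 FPKM in Con., 4.05 to 5.42 FPKM in PTZ and 3.77 to 3.90 FPKM in Q808. Among the markers of other cell types, those of endothelial cells came closest to the identity genes in Q808-1, at 1.18 beside 1.10 above the Con. mean. Of 5 endothelial markers 2 were called higher in Q808 against Con., beside 3.46% of all genes called. These were *Cldn5*, a tight junction gene, at 0.65 and *Tek*, the angiopoietin receptor, at 0.85. In PTZ against Con. 1 was called higher, beside 2.53% of all genes called (*Pecam1*, an adhesion molecule, at 0.63). In the libraries low in striatum markers 0 of the 5 were called in PTZ against Con. For Q808-2 against Con. *Cldn5* and *Tek* were at 0.24 and 0.29 there. None of the astrocyte, oligodendrocyte, neuron or dentate granule cell markers was called in any of the 3 comparisons over all libraries. Medians in Q808 against Con. were 0.35 for astrocyte markers, 0.48 for oligodendrocyte markers and -0.51 for neuron markers, beside 0.74 for the identity genes and 0.72 for endothelial markers. In the libraries low in striatum markers the same medians were -0.01, 0.02 and -0.15, beside 0.28 and 0.24. Single markers differed more in Q808-2 against PTZ there. The neuron marker *Nefl* was at -0.78, and the dentate granule cell markers *C1ql2* and *Dsp* were at -0.82 and 1.42.

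**Figure D4:**
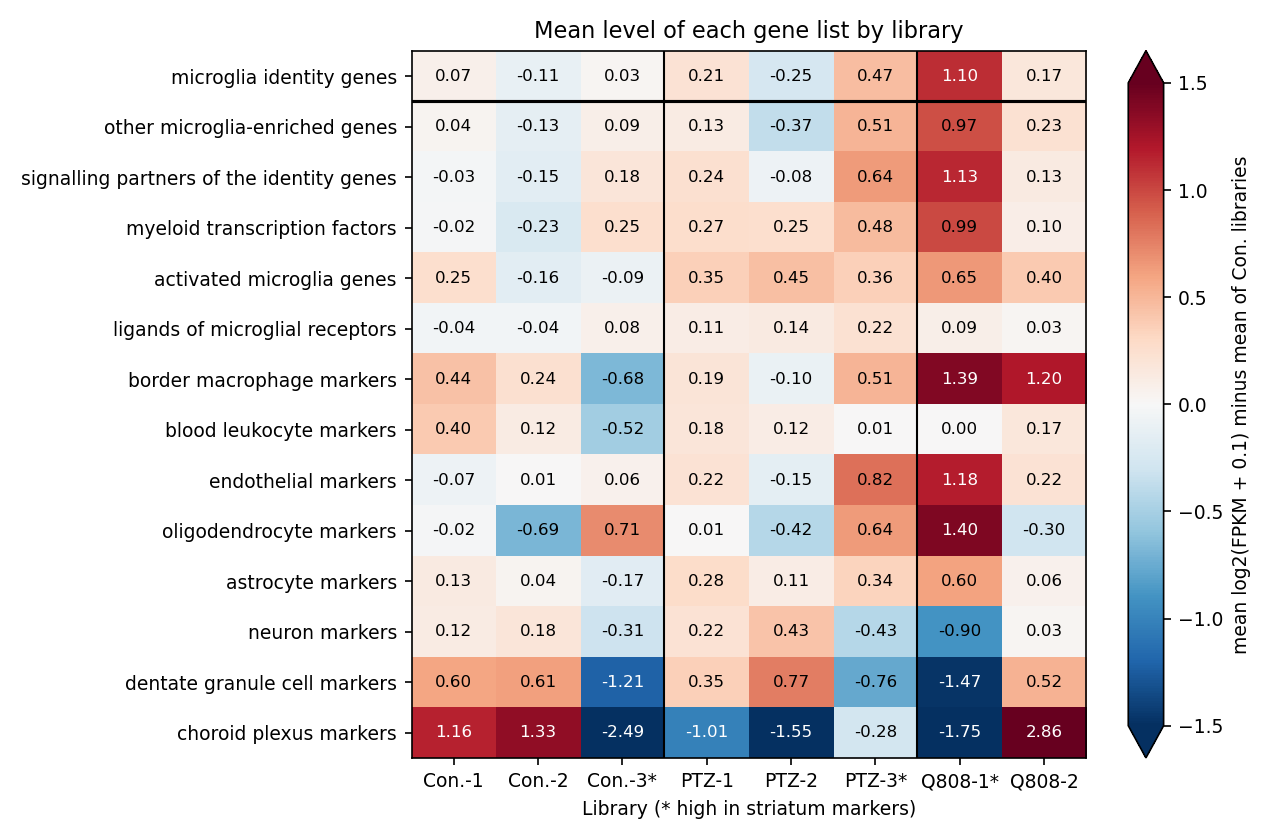
Mean log2(FPKM + 0.1) of each gene list (rows) in each library (columns) minus the mean of the 3 Con. libraries, as colour and number, with an asterisk for the 3 libraries high in striatum markers and colours capped at 1.5. In Q808-1 the identity genes (1.10) are raised together with signalling partners (1.13), endothelial (1.18) and oligodendrocyte markers (1.40) and neuron markers are lowered (-0.90), whereas Q808-2 shows 0.17 for the identity genes 1.196 for border macrophage markers and 2.86 for choroid plexus markers.

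The 10 genes most like the set were named by their Pearson correlation across the 8 libraries with the mean standardized profile of the 9 genes, among 12554 genes with a mean of at least 1 FPKM. They were *Ctss*, *Slco2b1*, *Ifngr1*, *Dzip1*, *Anxa3*, *Ctxn3*, *C1qa*, *Sipa1*, *Laptm5* and *Galnt1*, with correlations from 0.97 to 0.99. Without Q808-1 the same genes had 0.89 to 0.99, with *Ctss* highest. *Ctss* and *Laptm5* were on the list of other microglia-enriched genes, and *C1qa*, a complement subunit that microglia make, was not. Correlations above 0.9 were found for 2.17% of all genes compared, whose median was 0.16. By list, the median was 0.92 for other microglia-enriched genes, 0.89 for signalling partners, 0.88 for endothelial markers, 0.81 for oligodendrocyte markers, 0.78 for myeloid transcription factors and -0.80 for neuron markers. The 8 points share libraries that differ in cell type markers, so these correlations describe the libraries only.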

How the data were processed

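The authors sequenced RNA of the hippocampus from 8 rats (Con. n = 3, PTZ n = 3, Q808 n = 2). The authors trimmed the reads with Trimmomatic, computed FPKM per gene with Cufflinks, and deposited 1 FPKM value for each of 22601 genes per library. The submitters' processing notes also name HISAT2, Bowtie2, StringTie, SAMtools, HTSeq and DESeq, and the genome build and the strand setting are not given in the sources used here. FPKM are already scaled, so the read depth behind a value is unknown from the files and only the spread between rats gives the precision.

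GeneIDs were matched to symbols through the RefSeq table of GRCr8 for 20633 genes, and 1968 kept their GeneID. *Ccr2* was not analysed here. The 15593 genes with a mean of at least 0.1 FPKM were tested on log2(FPKM + 0.1) with limma 3.58.1 in R 4.3.3 (empirical Bayes with a trend), each comparison on its own 2 groups, with Benjamini-Hochberg adjustment over all 15593 genes. The added 0.1 understates changes of low genes. Calls required an unadjusted p under 0.05 and more than 1.5-fold, as in the study's methods, where the limits are read as limits on the fold change. The procedure was tested on simulated data.

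The 9 members and the 14 other gene lists were chosen with earlier results of these data known. Named genes were the 9 members, each listed gene called in any comparison, the 2 most abundant genes of each list that bears on microglia, and the 10 genes most like the set. A result that this rule would name is not reported here. Genes named beyond these, such as *Spi1*, *Itgb2*, *Csf1*, *Il34* and the genes called only in the libraries low in striatum markers, were chosen after values were seen. The division into 3 libraries high and 5 low in striatum markers follows the largest gap in the mean of 6 striatum markers. Con. and PTZ libraries with the same replicate number deviated from their group means in the same direction, at correlations of 0.31, 0.39 and 0.47 across genes. Differently numbered libraries low in striatum markers did so too, at 0.45 for Con.-2 with PTZ-1 and 0.12 for Con.-1 with PTZ-2. The numbers were used as pairs only in the replicate block, and the main fit was unpaired. They come from the labels alone and from different rats. Con.-3 and PTZ-3, the third pair, are both high in striatum markers. Alternatives were the pseudocount, the filter, the fit, the scaling, the replicate block, the striatum set and each library left out.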

Additional observations from a re-analysis of the deposited data

How the results depend on the processing

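Over the settings of single genes in PTZ against Con., 140 values kept the direction and the side of the threshold, 4 lost a call, 2 gained one and 7 changed sign. The same counts were 123, 0, 16 and 5 in Q808 against PTZ and 107, 17, 17 and 3 in Q808 against Con. No gene of the set passed an adjusted p under 0.05 in any comparison.

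In PTZ against Con., 395 genes were called, beside 219 with a pseudocount of 1, 616 with the replicate block, 1530 without the 3 libraries high in striatum markers, 669 with the striatum set as a covariate, 249 to 1135 with 1 library left out and 0 at an adjusted p under 0.05 (589 at an unadjusted p under 0.05 in limma). Of the 9 genes, 1 was called, beside 0 with a pseudocount of 1 or with the adjusted p, 2 without the 3 libraries, and 0 to 1 with 1 library left out. Without PTZ-2 the gene called was *Aif1* and not *Tmem119*. The replicate block changed the call of none of the 9 genes here. *Itgam* and *Tyrobp* turned to -0.061 and -0.113 without the 3 libraries. With 1 library left out, *Itgam* ranged from -0.098 to 0.254, *Tyrobp* from -0.213 to 0.347 and *P2ry12* from -0.373 to 0.105, and the median of the 9 genes from 0.058 to 0.348.

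In Q808 against PTZ, 300 genes were called, beside 193 with a mean of at least 1 FPKM, 1894 with the replicate block, 1444 without the 3 libraries, 590 with the covariate, 132 to 1569 with 1 library left out and 0 with the adjusted p (341 unadjusted in limma). None of the 9 genes was called, beside 1 with all 3 groups in a fit, 1 without the trend, 1 with the covariate, 7 with the replicate block and 0 to 4 with 1 library left out. Here the replicate number is shared by only 2 pairs, whose correlations were -0.44 and 0.42, so it is a number and no pairing. *Trem2* turned to 0.286 with the block. With 1 library left out, *Aif1* ranged from -0.052 to 0.810, *Trem2* from -0.988 to 0.919, *Tmem119* from -0.349 to 0.082 and the median of the 9 genes from 0.059 to 1.020.

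In Q808 against Con., 540 genes were called, beside 340 with a pseudocount of 1, 1076 with the replicate block, 1019 with the covariate, 279 to 1799 with 1 library left out and 1 with the adjusted p. Of the 9 genes 2 were called, beside 0 with the adjusted p or without the filter, 3 with all 3 groups in a fit, 1 without the trend, with quantile normalization, with median ratio scaling or without the 3 libraries, 5 with the replicate block or the covariate and 0 to 8 with 1 library left out. The median of the 9 genes was 0.275 without the 3 libraries and 0.254 to 1.218 with 1 library left out. Without the 3 libraries *Trem2* was at -0.463 and *Cd68* at -0.068, and *Trem2* ranged from -0.609 to 1.297 with 1 library left out. Quantile normalization moved the split of called genes from 212 higher and 88 lower to 131 and 140 in Q808 against PTZ, and from 479 and 61 to 285 and 156 in Q808 against Con., while the medians of the 9 genes were 0.543 and 0.697. The causes of these changes were not tested. With 2 Q808 rats that differ by up to 3.82-fold in a gene, differences of the size seen between groups cannot be separated from differences between rats.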
